A study of Mus musculus with 20 samples.

Results

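GFPoct4 mouse embryonic stem (ES) cells were compared with C57-mES, a second set of mouse ES cells, on Illumina bead arrays, which report the brightness of a labelled RNA target on probe-coated beads. The comparison takes in 8 of the 20 arrays of the series, 4 titled GFPoct4 and 4 titled C57-mES, chosen by title. The remaining arrays, 4 each, are E14-mES, a further ES cell set, sFB-protein-iPS, labelled as induced pluripotent stem cells, and FVB-sFB, titled as skin fibroblasts but carrying the ES cell label in its source and cell type fields. All 5 groups were processed from total RNA in the same way. For the GFPoct4 and C57-mES groups the labels state the species and the cell type, both described as embryonic stem cells, and name no genotype, construct, sex, age, passage, feeder layer, medium or treatment. The titles are therefore used here as names only. The labels do not say whether the 4 arrays of a group came from separate cultures, so that p-values measure the spread between these arrays, which may be technical. They also do not say whether a group is 1 clone.

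Mouse ES cells are derived from the inner cell mass of the blastocyst and self-renew in culture while keeping the capacity to form all tissues of the body. Their state rests on a core of transcription factors (Oct4, encoded by Pou5f1, with Sox2 and Nanog), around which naive factors such as Klf4, Esrrb and Zfp42 mark the ground state kept by the cytokine LIF, and factors such as Otx2 and Dnmt3b mark the step toward the primed epiblast. Independently derived ES lines are known to differ in imprinting, in the rare 2-cell-like state, in germ line genes held in check by DNA methylation, and in the fibroblast feeder cells that many are grown on.

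Levels are given as normalized log2 intensity, in which a difference of 1 is a 2-fold difference, and fold changes as log2 of GFPoct4 over C57-mES with their standard error. A gene was called when limma's moderated test, adjusted by Benjamini-Hochberg over all 16593 genes, gave an adjusted p under 0.05 and the difference was at least 2-fold. An array's background level was the 95th percentile of 1303 olfactory and vomeronasal receptor probes, and lay between 6.72 and 6.78 on the GFPoct4 arrays and between 6.72 and 6.79 on the C57-mES arrays. Where the dimmer group had an array at or below that level, the fold is given as a lower bound ("at least"). Between 50.4% and 52.4% of probes lay above background on the GFPoct4 arrays, and between 49.9% and 52.3% on the C57-mES arrays. Raw medians were 114 to 122 on the GFPoct4 arrays and 104 to 128 on the C57-mES arrays. The top of the raw range differed with the groups: the brightest probe read 58519 to 63254 on the GFPoct4 arrays and 47068 to 52180 on the C57-mES arrays. Correlations over genes were 0.989 to 0.995 among the GFPoct4 arrays, 0.994 to 0.997 among the C57-mES arrays and 0.954 to 0.962 between the groups. GFPoct4 array 1 stood furthest from the rest of its group, at 0.989 to 0.990.

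Of the 16593 genes, 1314 were called (7.92%), with 738 higher in GFPoct4 (4.45%) and 576 lower (3.47%). All of these lay among the 9034 genes above background on all 4 arrays of either group, 8.17% of which were called higher and 6.38% lower. Both of the latter shares apply to the gene lists below, some members of which are below background. The median log2 fold change over all genes was -0.00. The called genes differed by a median of 1.31 log2 units in size, and 32 of them by more than 8-fold. A difference of any size passed the adjusted threshold at 6716 genes (40.5%), and the 4 GFPoct4 and 4 C57-mES values did not overlap at 6728 genes (40.5%). Among the called genes, 1310 did not overlap (7.89% of all genes).

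**Figure D1:**
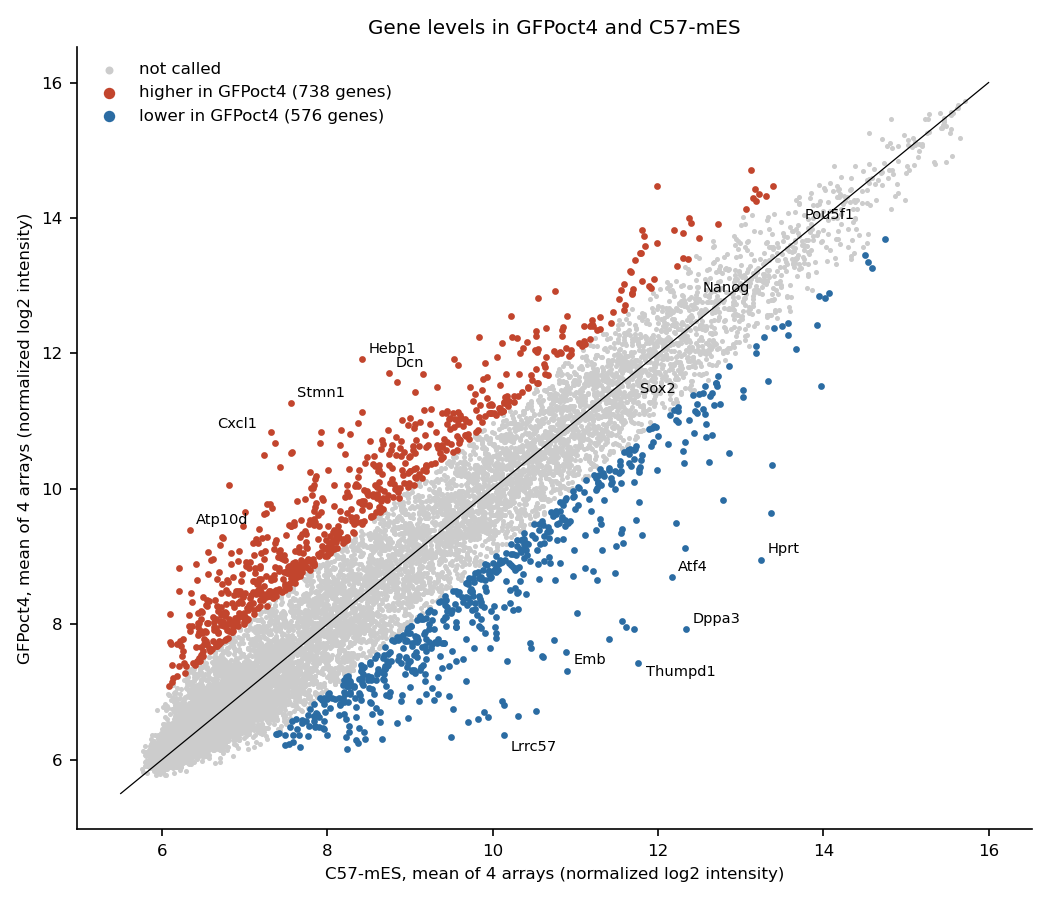
Mean normalized log2 intensity of each of 16593 genes over the 4 GFPoct4 arrays (vertical axis) and the 4 C57-mES arrays (horizontal axis), with the line of equal levels. The 738 genes called higher in GFPoct4 are red and the 576 called lower are blue. Pou5f1 and Nanog lie near the line at the top of the range, while Dppa3, Hprt and Thumpd1 lie far below it.

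The general pluripotency genes gave the cell type its check. Pou5f1 read 14.17, 13.88, 13.74 and 13.78 on the GFPoct4 arrays, against 13.63, 13.71, 13.73 and 13.70 on the C57-mES arrays, among the bright end of all genes in both, while FVB-sFB averaged 6.84. Its difference was 0.20 ± 0.10 (adjusted p = 0.13, limma). A second Pou5f1 probe, about as bright, differed more, at 13.96 in GFPoct4 against 13.40 in C57-mES (0.56), under 2-fold. Nanog read 12.86, 12.96, 12.81 and 12.63 in GFPoct4, against 12.59, 12.45, 12.37 and 12.44 in C57-mES. All GFPoct4 values were above all C57-mES values, by 0.35 ± 0.09 (limma adjusted p = 0.00234), which is under the 2-fold threshold. Sox2 read 11.94, 11.45, 10.93 and 10.97 in GFPoct4, against 11.59, 11.70, 11.81 and 11.75 in C57-mES, and the groups overlapped. Its other probe, dimmer, differed the other way, at 9.26 in GFPoct4 against 7.65 in C57-mES, so that the array gives no single direction for Sox2. Myc read 6.50 to 7.02 in GFPoct4 and 6.69 to 7.02 in C57-mES, at or near the background level in both. Of the 16 measured general pluripotency factors and markers 1 rose, 1 fell and 14 were not called, with a median of -0.12. Among all genes above background 8.17% rose and 6.38% fell.

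The member that fell was Dppa3 (Stella), which protects maternal DNA methylation in the zygote and varies from cell to cell in ES cultures, and it had the largest decrease of all the named genes. It read 7.57, 8.12, 8.07 and 7.94 on the GFPoct4 arrays, against 12.16, 12.35, 12.37 and 12.50 on the C57-mES arrays, a 21.4-fold lower level (log2 fold change -4.42 ± 0.16, limma adjusted p = 3.76e-17). No GFPoct4 value came within 4 log2 units of a C57-mES value, and E14-mES (9.48) and sFB-protein-iPS (8.88) lay between, nearer to GFPoct4. The member that rose was Tdgf1 (Cripto), the co-receptor through which Nodal signals. It read 10.59, 10.30, 10.93 and 10.92 in GFPoct4, against 7.24, 7.25, 7.23 and 7.75 in C57-mES, a 9.95-fold difference (3.31 ± 0.14, limma adjusted p = 6.61e-16). Its other probe also stood higher in GFPoct4, by 1.86. In a bulk sample, fewer cells expressing a gene and less RNA per cell cannot be told apart, here and at every gene below.

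Of 12 measured naive factors 3 rose and none fell, with a median of 0.45. Over all genes 4.45% rose and 3.47% fell, and over those above background 8.17% and 6.38%. Zfp42 (Rex1), a zinc finger protein widely used as a marker of naive cells, read 13.40, 12.90, 12.66 and 12.70 in GFPoct4, against 10.80, 10.62, 10.77 and 10.86 in C57-mES, 4.46-fold higher. Tcl1, a coactivator of the AKT kinase, read 11.88 to 12.13 in GFPoct4 and 10.50 to 10.57 in C57-mES. Stat3, which carries the LIF signal, was 2.03-fold higher in GFPoct4 at its brightest probe, with the other probes at 0.51 and 0.69, under the threshold, and was not called without GFPoct4 array 1 (0.94) or array 2 (1.00). Klf4 (0.76 ± 0.10, limma adjusted p = 1.06e-06), Nr5a2 (0.82), Klf5 (0.51) and Esrrb (0.38) did not reach a 2-fold difference at the probes used. Every GFPoct4 value was above every C57-mES value for each of them, but 40.5% of all genes had no overlap between the groups. Further Klf4 probes stood at 0.60 and 1.31, the latter above 2-fold. Klf2 (0.07) and Tbx3 (-0.08), also bright, hardly differed. In the wider LIF and STAT3 list, 3 of 13 rose and 1 fell. Besides Stat3 the rises were Bcl3, a nuclear cofactor of NF-kappaB (2.37-fold), and Jak1, a kinase bound to cytokine receptors (at least 1.60-fold). Socs2, a feedback inhibitor of cytokine receptors, fell by 1.67 on the log2 scale.

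Genes of the primed epiblast and early neural lineage showed 1 rise and 4 falls among 16 (8.17% and 6.38% of all genes above background). Their median was -0.06. Olig1, a basic helix-loop-helix factor of oligodendrocyte precursors, read 7.94, 8.13, 8.22 and 7.87 in GFPoct4, against 11.62, 11.45, 11.53 and 11.65 in C57-mES, 11.5-fold lower. Dnmt3b, the de novo DNA methyltransferase, averaged 12.07 ± 0.05 in GFPoct4 and 13.67 ± 0.07 in C57-mES (SD, n = 4 each), 3.04-fold lower, with no overlap. Zic2 (-1.37) and Otx2 (-1.21), transcription factors of the early epiblast and neural plate, fell as well. Fgf15, a secreted growth factor, rose by 1.05, and was not called without background correction or in the unnormalized values. At Otx2 the E14-mES mean, 10.80, was above both GFPoct4 and C57-mES. Of 13 neural progenitor and neuron markers none was called (median -0.17).

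The Nodal pathway has ligands that act through Cripto and activin receptors, and targets that include its own inhibitors. Of 15 members 4 rose and none fell (8.17% and 6.38% of all genes above background). The 4 rises were large beside a list median of -0.05. Besides Tdgf1, they were the secreted Nodal antagonists Lefty2 and Lefty1 and the activin subunit Inhbb. Lefty2 read 10.98, 10.70, 10.72 and 10.80 in GFPoct4, against 8.40, 8.31, 8.23 and 8.15 in C57-mES, 5.78-fold higher. Lefty1 read 11.32 to 11.52 in GFPoct4 and 9.65 to 9.86 in C57-mES, 3.07-fold higher. Inhbb read 9.52, 9.57, 9.83 and 9.70 in GFPoct4, against 7.22, 6.91, 6.83 and 7.04 in C57-mES, 6.29-fold higher. Nodal itself, the ligand, read 9.37 to 9.90 in GFPoct4 and 9.78 to 10.03 in C57-mES, and was not called (-0.30 ± 0.11, limma adjusted p = 0.028). The 2 Lefty genes are the only ones called among the 16 primitive streak and mesoderm genes, which had a median of 0.09.

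Of 15 primitive and later endoderm genes 5 rose and none fell (8.17% and 6.38% of all genes above background), with a median of 0.47. They were the endocytic adaptor Dab2 (3.93-fold), the basement membrane chains Col4a1 (3.74-fold), Col4a2 (2.78-fold) and Lama1 (2.24-fold), and the receptor Pdgfra, which read 8.52 to 8.69 in GFPoct4 and 6.45 to 7.03 in C57-mES (at least 3.39-fold). The endoderm transcription factors themselves were dim or not called: Gata6 averaged 8.64 in GFPoct4 and 7.74 in C57-mES (0.90, below 2-fold), Sox17 averaged 6.82 in GFPoct4 and 6.87 in C57-mES, and Gata4 averaged 6.53 in GFPoct4 and 6.82 in C57-mES. Fibroblasts also express several of the genes that rose. FVB-sFB averaged 13.60 for Col4a1, 13.25 for Col4a2, 11.70 for Pdgfra and 10.50 for Dab2, but 6.52 for Lama1. The sFB-protein-iPS means were above those of GFPoct4 at Lama1 (13.12), Col4a1 (11.90), Col4a2 (11.23) and Dab2 (10.52), and below at Pdgfra (7.90). The part of other cells in this group was not tested.

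Among signalling genes, Wnt7b, a secreted Wnt ligand, fell and Sfrp1, a secreted Wnt antagonist, rose. For the lists in this paragraph, the shares over all genes above background were 8.17% higher and 6.38% lower. Wnt7b read 6.78, 6.78, 6.30 and 6.72 in GFPoct4, near background, against 10.23, 10.36, 10.34 and 10.29 in C57-mES, at least 11.7-fold lower, and its other probe fell by 1.22. Sfrp1 read 10.80, 10.72, 10.70 and 10.58 in GFPoct4, against 8.57, 8.52, 8.45 and 8.51 in C57-mES, 4.55-fold higher. The cyclin gene Ccnd1, a common Wnt target, was 2.09-fold higher (not called in the unnormalized values, at 0.96), and the remaining 19 of 22 Wnt genes were not called, Axin2 (0.26) and Lef1 (-0.25) among them. Of 19 FGF and ERK genes Spry4 (-2.25), a feedback inhibitor of the pathway, and the receptor Fgfr2 (-1.28) fell and Ier3, an early response gene, rose (1.22). Of 17 BMP genes Id3, a target, fell by 1.42, and the receptor Bmpr1a rose by 1.93 at its brightest probe while its other probe stood at -0.52. With median centring 3 of the 17 rose and 1 fell.

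**Figure D2:**
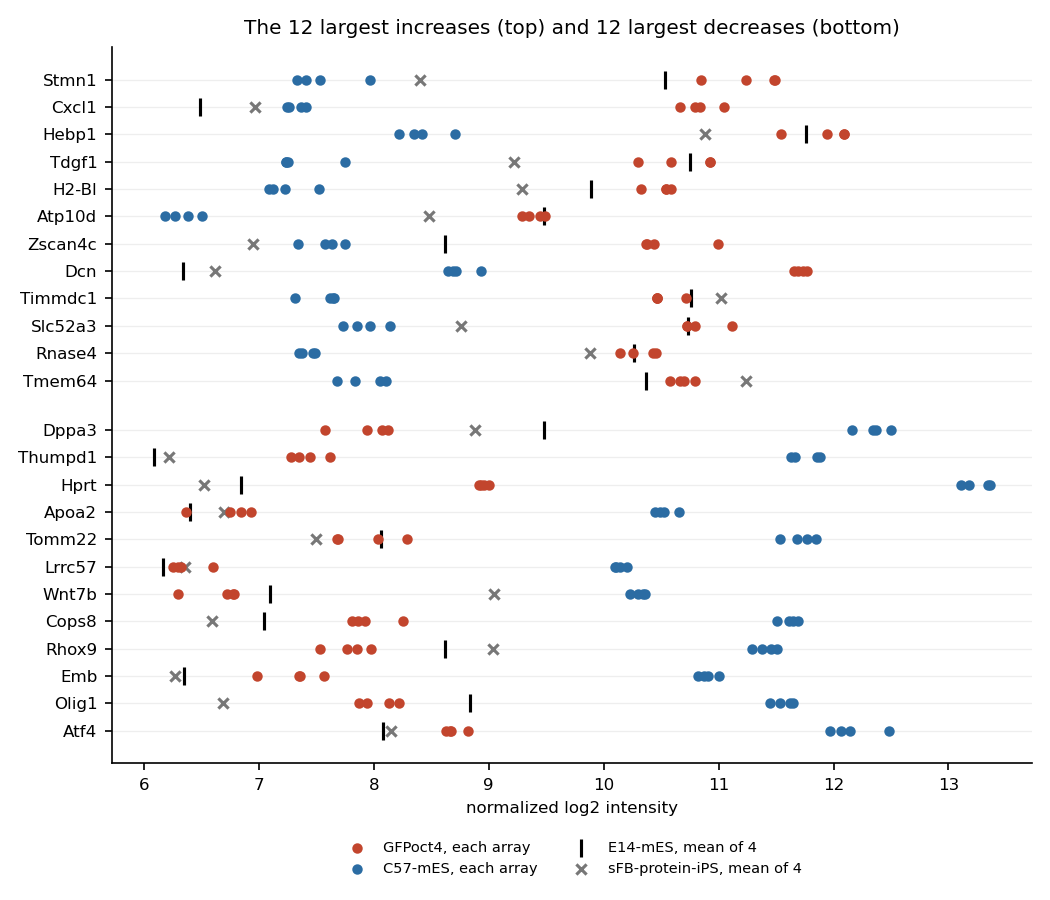
Normalized log2 intensity of the 12 genes with the largest increases (top) and the 12 with the largest decreases (bottom) among those called with no overlap between the groups' arrays, predicted and clone names left out. Red and blue points are the 4 GFPoct4 and 4 C57-mES arrays, bars the E14-mES means and crosses the sFB-protein-iPS means. At Stmn1, Hebp1 and Tdgf1 the E14-mES mean lies with or near the GFPoct4 arrays, at Cxcl1 and Dcn it lies below both groups, and at Thumpd1, Hprt and Emb it lies below the GFPoct4 arrays.

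The largest increase was that of Stmn1 (stathmin), which destabilizes microtubules. It read 10.84, 11.24, 11.49 and 11.48 in GFPoct4, against 7.97, 7.41, 7.33 and 7.53 in C57-mES, 13.0-fold higher (3.70 ± 0.16, limma adjusted p = 1.43e-15). Hebp1, a haem-binding protein, read 11.54, 12.09, 11.95 and 12.09 in GFPoct4, against 8.71, 8.22, 8.41 and 8.35 in C57-mES, 11.3-fold higher. E14-mES stood with GFPoct4 at both genes, at 10.53 for Stmn1 and 11.76 for Hebp1. Others of the 12 largest increases were H2-Bl, a class I histocompatibility gene (9.58-fold), the lipid-flipping ATPase Atp10d (at least 6.27-fold), Timmdc1, an assembly factor of respiratory complex I (7.81-fold), the riboflavin transporter Slc52a3 (7.58-fold), the secreted ribonuclease Rnase4 (7.45-fold, with its other, dim probe at 0.16) and Tmem64 (6.81-fold). Class I genes are close copies of each other, so the H2-Bl signal may include another of them.

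Thumpd1, which helps acetylate transfer RNA, read 7.28, 7.35, 7.44 and 7.62 in GFPoct4, against 11.86, 11.88, 11.67 and 11.63 in C57-mES, 20.2-fold lower (-4.33 ± 0.11, limma adjusted p = 2.68e-19). Tomm22, an import receptor of the mitochondrial outer membrane, was 13.8-fold lower, and Cops8, a subunit of the COP9 signalosome, was 12.6-fold lower. Emb, the membrane glycoprotein embigin, was 12-fold lower, at 6.98 to 7.57 in GFPoct4 and 10.82 to 11.00 in C57-mES. At these 4 genes sFB-protein-iPS, at 6.22, 7.50, 6.60 and 6.27, stood below GFPoct4. Apoa2, a protein of high-density lipoprotein, was at least 13.1-fold lower and Lrrc57 at least 10.5-fold lower, both near background on the GFPoct4 arrays.

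Hprt, the X-linked enzyme that salvages hypoxanthine and guanine, averaged 8.95 ± 0.04 on the GFPoct4 arrays and 13.25 ± 0.13 on the C57-mES arrays (SD, n = 4 each), with 13.11 the lowest C57-mES value. It was 19.6-fold lower (-4.29 ± 0.13, limma adjusted p = 1.49e-18), and its 2 other probes were lower too, with log2 fold changes of -1.19 and -2.01. E14-mES (6.85) and sFB-protein-iPS (6.53) were lower still, near background, and FVB-sFB stood at 12.54. Of 13 purine synthesis and salvage enzymes 2 fell and none rose (6.38% and 8.17% of all genes above background). The 2 were Hprt and the adenylosuccinate synthetase Adss (-1.16), and the median was -0.61. In the unnormalized values 4 fell. Impdh1 (-0.98), Adk (-0.94) and Gart (-0.87) lay under the 2-fold threshold. Among the other genes of X inactivation and the Y chromosome none of 8 was called. Xist, the RNA that silences an X chromosome, read 6.46 to 6.86 in GFPoct4 and 6.42 to 6.75 in C57-mES, at or near the background level, and the Y-linked Eif2s3y averaged 9.21 in GFPoct4 and 9.48 in C57-mES. Nnt, a mitochondrial transhydrogenase, was below background on all 8 arrays.

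The 2-cell-like state is a rare and passing state of ES cells in which genes of the cleavage embryo are switched on. Its genes had 3 rises among 8 measured and no falls (8.17% and 6.38% of all genes above background), with a median of 0.50. Zscan4c, which acts in telomere lengthening, read 11.00, 10.37, 10.44 and 10.38 in GFPoct4, against 7.34, 7.75, 7.63 and 7.58 in C57-mES, 7.84-fold higher (2.97 ± 0.12, limma adjusted p = 6.61e-16). Tcstv3 read 9.05, 9.29, 9.44 and 9.36 in GFPoct4, against 6.74, 6.63, 6.64 and 6.87 in C57-mES, at least 5.73-fold higher, and Tcstv1 was at least 4.97-fold higher. E14-mES lay between the groups at these genes (8.62, 7.88 and 7.48), and sFB-protein-iPS was at or near background (6.95, 6.65 and 6.51). Eif1a (-0.86), Zfp352 (0.15), Usp17la (0.59), Tdpoz4 (-0.23) and Arg2 (0.41) were not called, and Zfp352 was below background in both groups. Zscan4c and the Tcstv genes belong to families of near-identical copies, so each value may sum several copies.

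Of 19 germ line genes 5 fell and 1 rose (6.38% and 8.17% of all genes above background), with a median of -0.23. The falls included 3 X-linked homeobox genes of the Rhox cluster, which are active in the placenta and gonads and are known to be silenced by DNA methylation. Rhox5 read 9.80, 10.46, 10.55 and 10.60 in GFPoct4, against 13.44, 13.34, 13.33 and 13.41 in C57-mES, 8.16-fold lower. Rhox6 was below background on all 4 GFPoct4 arrays (6.21 to 6.49), against 9.43 to 9.56 in C57-mES, at least 6.70-fold lower. Rhox9 read 7.54, 7.76, 7.85 and 7.98 in GFPoct4, against 11.38, 11.29, 11.51 and 11.46 in C57-mES, 12.4-fold lower. E14-mES was below C57-mES at all 3 (8.83, 6.89 and 8.62), as was sFB-protein-iPS (11.73, 7.51 and 9.04). Tex19.1 and Tex19.2, which guard germ cells against retrotransposons, fell by 1.73 and 1.78 on the log2 scale. Stra8, the gene of meiotic entry, rose, at 8.03 to 8.28 in GFPoct4 and 6.30 to 6.66 in C57-mES, below background, at least 2.67-fold.

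DNA methylation genes had 2 falls among 7, Dnmt3b and its cofactor Dnmt3l (-1.07), and a median of -0.45. Dnmt1, the maintenance enzyme, stood at 0.08, and Uhrf1, which recruits it, at 0.90. Of 13 Polycomb genes 3 rose, against 8.17% of all genes above background. They were Rnf2, the catalytic subunit of complex 1 (at least 2.59-fold), and Eed (2.06-fold) and Mtf2 (2.05-fold) of complex 2. In the unnormalized values 1 of the 13 rose. Eed was not called without C57-mES array 3 (0.98), nor Mtf2 without C57-mES array 4 (0.91). The list median was -0.18, and Suz12 (-0.78), Phc1 (-0.71) and Ezh2 (-0.27) did not reach the threshold. Imprinted genes are expressed from 1 parental copy and are prone to change in culture. They had 5 falls and 1 rise among 20 (6.38% and 8.17% of all genes above background) and a median of -0.02. The growth factor Igf2 read 10.21, 10.41, 10.51 and 10.46 in GFPoct4, against 12.60, 12.61, 12.62 and 12.66 in C57-mES, 4.67-fold lower. The placental growth inhibitor Phlda2 (-1.85), the zinc finger gene Peg3 (-1.70), Ndn (-1.52) and the adaptor Grb10 (-1.51) fell, and the Notch-like ligand Dlk1 rose by 1.55. Dlk1 stood at 10.32 to 10.75 in GFPoct4 and 8.98 to 9.09 in C57-mES, above E14-mES (6.46) and sFB-protein-iPS (7.22).

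Genes of the amino acid and endoplasmic reticulum stress response were mostly higher in GFPoct4 where they were called. In this response the translation factor eIF2 is phosphorylated and the transcription factor ATF4 activates amino acid transporters and synthetic enzymes. Of 25 measured, 10 rose and 1 fell, with a median of 0.34. The shares were 4.45% higher and 3.47% lower over all genes, and 8.17% and 6.38% over those above background. The gene that fell was Atf4. It read 8.82, 8.62, 8.67 and 8.66 in GFPoct4, against 11.97, 12.06, 12.15 and 12.48 in C57-mES, 11.1-fold lower (-3.47 ± 0.14, limma adjusted p = 2.22e-16), with E14-mES (8.08), sFB-protein-iPS (8.15) and FVB-sFB (7.93) all below GFPoct4. Chac1, which degrades glutathione and is a target of ATF4, read 13.71, 13.45, 13.39 and 13.39 in GFPoct4, against 11.81, 11.83, 11.73 and 11.79 in C57-mES, 3.24-fold higher (1.70 ± 0.13, limma adjusted p = 6.1e-11). E14-mES (10.35) and sFB-protein-iPS (9.65) were below both groups. Slc3a2 (3.62-fold) and Slc7a5 (2.99-fold), the chains of a large neutral amino acid transporter, rose together. Slc7a5 read 15.07, 14.61, 14.51 and 14.63 in GFPoct4, against 13.12, 13.18, 13.09 and 13.10 in C57-mES. Also higher were Aldh1l2 (at least 2.98-fold) and Shmt2 (2.67-fold), mitochondrial enzymes of folate metabolism, the mTOR inhibitor Ddit4 (2.92-fold), the lipoprotein receptor Vldlr (2.80-fold), Herpud1, which acts in the degradation of misfolded proteins (2.28-fold), the stress protein Nupr1 (2.05-fold) and the chaperone Hspa5 (at least 1.95-fold). Asns, the asparagine synthetase, differed by 0.44 ± 0.12 and was not called. The count of rises was 9 without background correction and 8 in the unnormalized values.

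ATF4 is known to bind, with C/EBP partners, an element whose consensus is TGATGNAA, read as TTNCATCA on the other strand. This element was searched on both strands in the 250 bases before each RefSeq gene start (GRCm38.p6). It was found in 6 of the 22 genes of the list with a promoter sequence (27.3%), against 1056 of 27025 genes overall (3.91%), and in 4 of the 9 called genes that had a sequence. The list was chosen for this response and holds known ATF4 targets such as Chac1 and Asns. Its higher share may thus come with the choice of genes and is not a result of these data. The overall share covers all genes with a sequence, measured or not. A match describes the letters only. Slc7a11, near background in both groups and not called (0.06), held the element on both strands and is not shown. The stretches around the matches of the 4 called genes and of Asns, a well-known target that was not called here, are given because they lie at the genes with the values above. Each is written 5′ to 3′ on the strand of the gene, with the element in capitals. They lie at chr2:119351019-119351086 (+) for Chac1, chr19:27216790-27216857 (+) for Vldlr, chr8:94386287-94386354 (+) for Herpud1, chr7:126625543-126625610 (-) for Nupr1 and chr6:7693210-7693262 (-) for Asns.
Chac1: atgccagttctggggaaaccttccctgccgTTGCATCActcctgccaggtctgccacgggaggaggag
Vldlr: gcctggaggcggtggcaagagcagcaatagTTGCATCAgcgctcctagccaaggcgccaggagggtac
Herpud1: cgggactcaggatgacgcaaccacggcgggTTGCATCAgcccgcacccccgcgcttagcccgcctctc
Nupr1: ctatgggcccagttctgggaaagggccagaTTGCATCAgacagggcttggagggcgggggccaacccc
Asns: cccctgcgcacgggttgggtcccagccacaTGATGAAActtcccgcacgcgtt
The element reads TTGCATCA along the gene in the 4 called genes and TGATGAAA in Asns.

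Cholesterol synthesis and uptake genes, which the factor SREBP-2 activates when sterols are short, had 6 falls and 1 rise among 14 and a median of -0.74. Over all genes 3.47% fell and 4.45% rose, and over those above background 6.38% and 8.17%. Insig1, which retains SREBP in the endoplasmic reticulum, read 8.26, 7.82, 7.82 and 7.95 in GFPoct4, against 9.86 to 10.18 in C57-mES, 4.18-fold lower. Of its other probes 1 fell by 2.22, 1 rose by 0.86 and 1 was at background, so that its probes disagree. The enzymes Lss (-1.57), Fdps (-1.18), Dhcr7 (-1.13), Msmo1 (-1.10) and Sqle (-1.09) fell, and Hmgcs1 (-0.89) lay under the threshold. Stard4, a carrier of cholesterol between membranes, rose by 1.37. The sterol element TCACCCCAC was found before the start of 1 of 11 listed genes with a sequence (9.09%, Hmgcs1), against 150 of 27025 genes (0.555%). This list, too, was chosen for its pathway, so these shares are a description only.

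**Figure D3:**
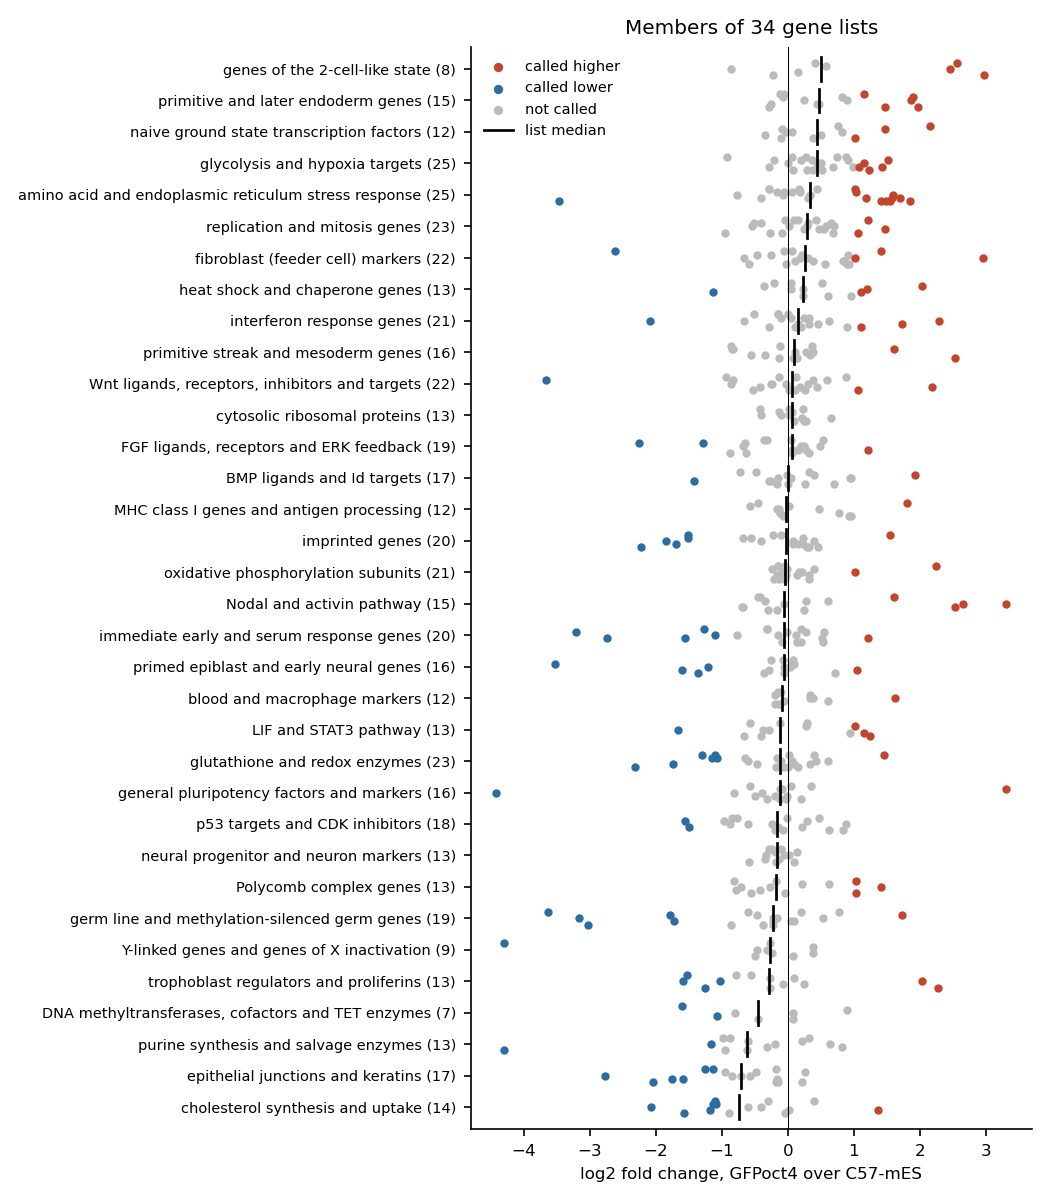
Log2 fold change of GFPoct4 over C57-mES for each measured member of 34 gene lists, with the number of measured members in brackets. Red and blue points are called genes, grey points are not called and black bars are list medians, ordered from the highest (0.50, the 2-cell-like state) to the lowest (-0.74, cholesterol synthesis and uptake).

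Epithelial junction and keratin genes had 6 falls and no rise among 17, with a median of -0.71. Over all genes 3.47% fell and 4.45% rose, and over those above background 6.38% and 8.17%. Sfn (stratifin), an epithelial 14-3-3 protein, read 6.66, 6.79, 6.89 and 6.67 in GFPoct4, near background, against 9.43, 9.39, 9.49 and 9.76 in C57-mES, at least 6.62-fold lower. Lor (loricrin), a protein of the cornified envelope, was at least 4.07-fold lower. The tight junction genes Cldn6 (-1.75) and Cldn4 (-1.14) and the simple-epithelium keratins Krt18 (-1.59) and Krt8 (-1.25) fell as well. sFB-protein-iPS averaged 10.21 for Sfn and 10.29 for Lor, above both ES groups. The trophoblast list, which shares the keratins, had 4 falls and 2 rises among 13 (median -0.28). Gata3 fell, averaging 6.88 in GFPoct4 and 8.41 in C57-mES, as did Tfap2c (-1.03), both transcription factors of the trophoblast. The 2 rises were the proliferins Prl2c3 and Prl2c4, described with the fibroblast markers below.

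Immediate early and serum response genes had 5 falls and 1 rise among 20 (6.38% and 8.17% of all genes above background). Their median was -0.05. Csrnp1, a nuclear protein induced by axin, read 9.05, 9.09, 9.14 and 9.19 in GFPoct4, against 12.32, 12.37, 12.28 and 12.34 in C57-mES, 9.24-fold lower. Ccn1 (Cyr61), a secreted matrix protein, read 7.93, 7.77, 7.57 and 7.59 in GFPoct4, against 10.25, 10.48, 10.59 and 10.46 in C57-mES, 6.64-fold lower. Other Ccn1 probes, also above background, differed less, at -0.26 and -1.67. Plaur, the urokinase receptor (-1.56), Phlda1 (-1.27) and Klf6 (-1.11) fell, and Ier3 rose. Of 18 p53 targets and cell cycle inhibitors, Pmaip1 (Noxa, -1.56), which promotes apoptosis, and Gadd45a (-1.49), a DNA damage gene, fell and none rose (median -0.17). A second probe stood at -0.60 for Pmaip1 and at -2.11 for Gadd45a.

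Replication and mitosis genes had 3 rises and no fall among 23 (median 0.29; 1 fell in the unnormalized values), namely the sliding clamp Pcna (2.78-fold), the licensing factor Cdt1 (2.32-fold) and Ccnd1. The MCM helicase genes ranged from -0.95 (Mcm7) to 0.69 (Mcm2) and none was called. Of 25 glycolysis and hypoxia genes 5 rose and none fell (8.17% and 6.38% of all genes above background), with a median of 0.45. The 5 were Ndrg1 (2.86-fold), the angiogenic factor Vegfa (2.68-fold), the glycolytic enzymes Pfkp (2.35-fold) and Tpi1 (2.11-fold), and the oxygen sensor Egln3 (2.22-fold). The dimmer probes of Vegfa, Pfkp and Egln3 stood between -0.11 and 0.49. In the unnormalized values 4 rose and 1 fell. Hk2 (0.99), Pfkl (0.91) and Ldha (0.68) were under the threshold, and Pkm stood at -0.91. Of 21 oxidative phosphorylation subunits 19 were not called, ranging from -0.23 to 0.40. Atp5a1, the alpha subunit of ATP synthase, read 11.68, 11.77, 11.94 and 11.95 in GFPoct4, against 9.65, 9.54, 9.32 and 9.82 in C57-mES, 4.76-fold higher, while the beta subunit Atp5b stood at 0.14. Cox7b was 2.02-fold higher, but its groups overlapped, with GFPoct4 array 1 at 7.46 and the other GFPoct4 arrays at 8.59 or more, against 7.33 to 7.60 in C57-mES. It was not called without background correction (0.97), nor without GFPoct4 array 2, 3 or 4 (0.97, 0.84 and 0.90) or C57-mES array 2 (0.97).

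Glutathione and redox enzymes had 6 falls and 1 rise among 23 (6.38% and 8.17% of all genes above background), with a median of -0.11. The metallothionein Mt2 read 6.83, 7.87, 7.76 and 8.13 in GFPoct4, against 9.95, 9.77, 9.84 and 10.31 in C57-mES, 4.99-fold lower. Gstm2 (-1.75), Gstm1 (-1.11) and Gsto1 (-1.07), which conjugate glutathione, Hmox1 (-1.29), which breaks down haem, and the peroxidase Gpx3 (-1.15) fell, and the Gstm genes are close copies whose probes may cross-react. Glo1, which detoxifies methylglyoxal, rose, averaging 13.77 in GFPoct4 and 12.31 in C57-mES. Of 13 heat shock and chaperone genes Dnajb9 (4.12-fold, with its other probe below background in both groups), Hspe1 (2.31-fold) and Dnajb1 (2.15-fold) rose and Hsph1 fell (-1.13), with a median of 0.23. The 13 cytosolic ribosomal protein genes had no call and a median of 0.06.

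Interferon response genes had 3 rises and 1 fall among 21 (8.17% and 6.38% of all genes above background), with a median of 0.16. Ifi27 read 9.73, 10.32, 10.20 and 10.34 in GFPoct4, against 7.98, 7.71, 7.87 and 7.82 in C57-mES, 4.92-fold higher. Stat2, the signal transducer, was at least 1.81-fold higher, and Ifitm1 was 3.33-fold higher at its brightest probe, with the others at -0.39 and -0.24. Bst2 (tetherin), which holds budding virus at the cell surface, read 7.25, 8.56, 8.25 and 8.84 in GFPoct4, against 10.30, 10.43, 10.45 and 10.05 in C57-mES, 4.24-fold lower. Usp18 (0.90, limma adjusted p = 4.2e-08), Ifit3 (0.63) and Isg15 (0.32), which interferon induces, were above background on all 4 GFPoct4 arrays and were not called. Ifit1, Irf7 and Oas1a were below background on all 8 arrays. Of 12 class I histocompatibility and antigen processing genes B2m, the light chain, rose, at 11.88 to 12.56 in GFPoct4 and 10.41 to 10.60 in C57-mES, 3.52-fold. H2-K1 (0.97) and H2-T23 (0.93) lay just under the threshold.

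Markers of fibroblasts, the cell type used as feeder for many ES lines, were set apart because several of the large increases are also bright in FVB-sFB. Some of the 12 largest decreases were bright there too, namely Emb (12.61), Hprt (12.54) and Thumpd1 (10.23). The rest of those 12 averaged 7.93 or less in FVB-sFB. Of 22 measured markers 3 rose and 1 fell (8.17% and 6.38% of all genes above background), with a median of 0.26. Their summed linear level was 12217 to 12944 on the GFPoct4 arrays, 8361 to 9020 on the C57-mES arrays, 4250 to 4879 on the E14-mES arrays and 278721 to 317578 on the FVB-sFB arrays. A linear sum is carried by its brightest members and does not describe the list as a whole. Dcn and Acta2, given below, moved it in opposite directions. Dcn (decorin), a matrix proteoglycan, read 11.69, 11.65, 11.77 and 11.73 in GFPoct4, against 8.94, 8.71, 8.69 and 8.64 in C57-mES, 7.81-fold higher (2.97 ± 0.11, limma adjusted p = 1.02e-16), and its other probe was higher by 3.22. E14-mES averaged 6.34 and FVB-sFB 14.12. Lox, a collagen crosslinking enzyme, rose by 1.42 and S100a4 by 1.02. S100a4 was not called without GFPoct4 array 3 (0.90) or 4 (0.88) or C57-mES array 1 (0.98). Thbs2 (0.93), Fbln2 (0.85), Vim (0.84) and Thy1 (0.57 ± 0.17) were not called, although Thy1 read 9.55 to 10.01 in GFPoct4 and 9.20 to 9.36 in C57-mES. Acta2, the smooth muscle actin of contractile fibroblasts, went the other way, at 8.70, 8.53, 8.65 and 8.72 in GFPoct4, against 11.28, 11.19, 11.41 and 11.17 in C57-mES, 6.12-fold lower. Other Acta2 probes also fell, but less, at -0.84, -1.08 and -1.99. Of the defining fibroblast collagens, Col1a1 read 6.52 to 6.69 in GFPoct4 and 6.41 to 6.83 in C57-mES, around background, against 12.64 in FVB-sFB. Col6a1, another collagen chain, was above background on all 8 arrays, averaging 8.27 in GFPoct4 and 7.36 in C57-mES (0.90 ± 0.20, limma adjusted p = 0.000538, not called), against 6.16 in E14-mES and 12.85 in FVB-sFB. Prrx1, a mesenchymal homeobox factor, averaged 7.73 in GFPoct4 and 6.83 in C57-mES and was not called (0.91). In all, 6 of the 22 markers were below background on all 8 arrays. The part of fibroblast RNA in the differences was not tested.

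**Figure D4:**
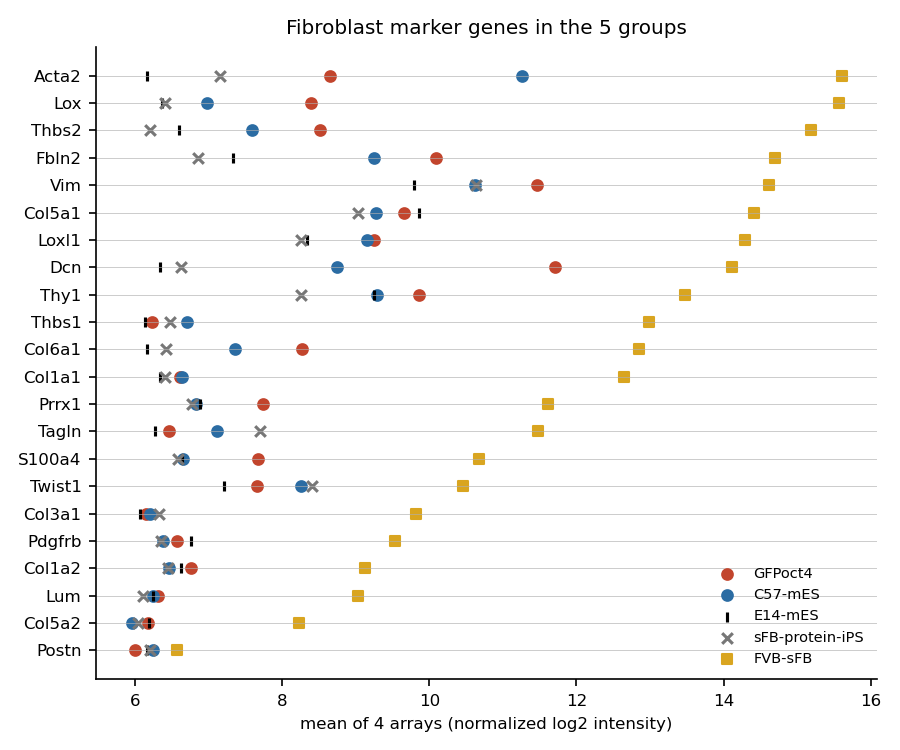
Mean normalized log2 intensity over 4 arrays of each of 22 fibroblast markers in GFPoct4, C57-mES, E14-mES, sFB-protein-iPS and FVB-sFB, ordered by the FVB-sFB level. Dcn is higher in GFPoct4 (11.71) than in C57-mES (8.75), Acta2 is lower in GFPoct4 (8.65) than in C57-mES (11.26), and Col1a1 lies near background in both.

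Cxcl1, a chemokine that attracts neutrophils, read 10.66, 10.80, 10.84 and 11.05 in GFPoct4, against 7.25, 7.41, 7.26 and 7.36 in C57-mES, 11.4-fold higher (3.52 ± 0.20, limma adjusted p = 2.19e-13), with 10.47 in FVB-sFB and 6.49 in E14-mES. The proliferins Prl2c3 and Prl2c4, prolactin-family hormones that growing fibroblasts secrete, were 4.84-fold and 4.1-fold higher. Prl2c3 read 12.61, 12.82, 12.88 and 12.98 in GFPoct4, against 10.57, 10.53, 10.51 and 10.57 in C57-mES, with 13.51 in FVB-sFB and 6.28 in E14-mES. The 2 genes are close copies whose probes may detect each other.

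At 69 genes called higher, all 4 GFPoct4 arrays and no C57-mES array lay above background, and at 11 of them no E14-mES or sFB-protein-iPS array did either. The 11 were Akr1c18, Aqp1, Btc, Cacng5, Casp4, Ccl2, Ccl7, Mmp13, Mx2, Pigz and Tmem176b, picked after their values were seen. The chemokine Ccl7 read 7.77 to 8.31 in GFPoct4 and 5.95 to 6.17 in C57-mES, with 12.95 in FVB-sFB. The chemokine Ccl2 (7.56 to 8.19 in GFPoct4, 6.33 to 6.67 in C57-mES), the collagenase Mmp13 (7.56 to 7.91 in GFPoct4, 6.05 to 6.20 in C57-mES) and Tmem176b (8.94 to 9.29 in GFPoct4, 6.48 to 6.62 in C57-mES) averaged 11.14, 11.52 and 10.17 in FVB-sFB. Mx2, an interferon-induced GTPase, averaged 6.78 in FVB-sFB, around background. The reverse pattern, all 4 C57-mES arrays and no GFPoct4 array above background, held at 38 genes called lower, and at 15 of them no E14-mES or sFB-protein-iPS array was above background. They included Lrrc57, the egg and embryo gene Padi6 (6.18 to 6.62 in GFPoct4, 7.89 to 8.19 in C57-mES), the kininogen Kng1 (6.30 to 6.67 in GFPoct4, 8.74 to 8.93 in C57-mES) and the secreted lectin Reg2 (5.99 to 6.40 in GFPoct4, 8.12 to 8.39 in C57-mES), again chosen after their values were seen. Of 12 blood and macrophage markers 1 rose (8.17% of all genes above background), Laptm5 (3.07-fold). This lysosomal membrane protein read 13.82 to 14.35 in GFPoct4 and 12.29 to 12.45 in C57-mES and was as bright in E14-mES (14.02). The summed level of the 12, made up mostly of Laptm5, was 15429 to 21846 in GFPoct4, 5989 to 6518 in C57-mES and 15884 to 21999 in E14-mES. Of the 12 markers 7, the leukocyte marker Ptprc included, were below background on all 8 arrays.

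The means of the other pluripotent cells were set beside the 2 compared groups at the called genes. The E14-mES mean was nearer to GFPoct4 than to C57-mES at 1066 of the 1314 called genes (81.1%), made up of 588 of the 738 higher (79.7%) and 478 of the 576 lower genes (83%). The sFB-protein-iPS mean was nearer to GFPoct4 at 518 (39.4%), made up of 233 of the higher (31.6%) and 285 of the lower genes (49.5%). Both were nearer to GFPoct4 at 435 genes (33.1%), and neither was at 165 (12.6%). E14-mES with GFPoct4 and sFB-protein-iPS with C57-mES was the commonest arrangement, at 631 genes (48%). It is also the arrangement of the brightest raw values, which reached 61468 to 62716 on the E14-mES arrays and 45509 to 51118 on the sFB-protein-iPS arrays, so that the group and this property of the arrays cannot be told apart. By the same rule, 1212 genes were called between E14-mES and C57-mES (7.3%) and 325 between GFPoct4 and E14-mES (1.96%), comparisons that share arrays with the one above.

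Called genes lay on every autosome and on the X chromosome, and 2 chromosomes had medians off the rest. Over the 9034 genes above background in either group, the median log2 fold change was 0.01. The 479 such genes of chromosome 8 had a median of 0.28, with quartiles at -0.25 and 0.67. Of these, 66.6% were above 0, against 50.7% of the 9034 genes. On chromosome 8, 64 genes were called higher (13.4%) and 21 lower (4.38%), against 8.17% higher and 6.38% lower among the 9034. Chromosomes 13 (13.7%), X (11.2%) and 14 (11%) also had shares called higher above that of all 9034, with medians of -0.03, -0.02 and 0.07. The 805 genes of chromosome 11 had a median of -0.16, with 40.1% above 0. There, 38 were called higher (4.72%) and 53 lower (6.58%), so the share called lower was near that of all 9034 genes, and it was larger on chromosomes X (8.77%), 13 (8.57%), 7 (8.22%) and 1 (8.13%). The medians of the other chromosomes lay between -0.05 and 0.08. Set against E14-mES, chromosome 8 had a median of 0.10 in GFPoct4 and -0.17 in C57-mES, and set against sFB-protein-iPS a median of -0.00 in GFPoct4 and -0.25 in C57-mES. For chromosome 11 the medians against E14-mES were -0.01 in GFPoct4 and 0.13 in C57-mES, and those against sFB-protein-iPS were 0.06 in GFPoct4 and 0.15 in C57-mES. Zfp42, Col4a1, Col4a2, Sfrp1, Cdt1, Dnajb1 and Herpud1 are among the called genes of chromosome 8 that rose, and Hmox1, Mt2 and Bst2 are among those that fell. The number of chromosome copies was not measured.

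**Figure D5:**
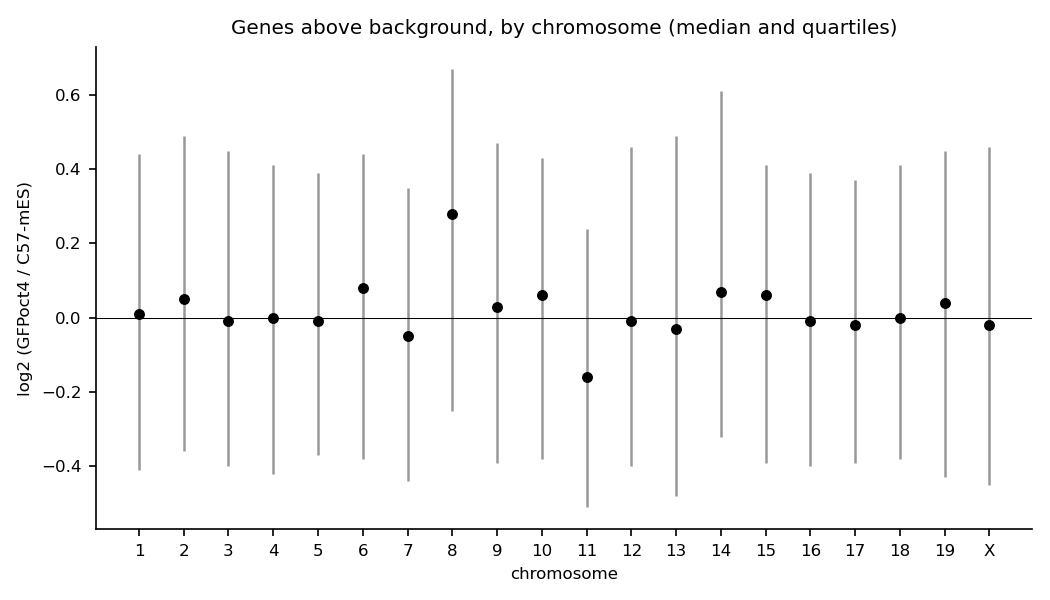
Median (point) and quartiles (line) of the log2 fold change of GFPoct4 over C57-mES for genes above background in either group, by chromosome. Chromosome 8 has the highest median (0.28) and chromosome 11 the lowest (-0.16), with all others between -0.05 and 0.08.

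Where a called gene had further probes, these can be set against the one used. Of the 1314 called genes 472 had more than 1 probe, and 366 of them had another above background, 491 probes in all. Of these 491 probes 423 differed in the same direction as the one used, 195 of them by at least 2-fold, and 7 differed by at least 2-fold in the opposite direction.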

How the data were processed

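The authors hybridized 500 ng of labelled total RNA per sample, per the labels, and exported probe values with BeadStudio (version not given), per the submitters' processing notes. The deposited non-normalized table holds linear intensity, and the deposited value table holds log2 of it (equal within 5e-09). No detection p-values were available, so the planned correction from negative controls was replaced by normexp (offset 50) with quantile normalization over the 20 arrays (R 4.3.3, limma 3.58.1). No normalization by the authors is stated, and 0 sample columns were left out.

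Of 25697 probes 23978 had 1 gene symbol, 0 several and 1719 none, and 23962 matched RefSeq identifiers (GRCm38.p6). The brightest probe stood for each of 16593 genes, 4777 of which had several. One 5-group model was fitted to all 20 arrays. Groups came from titles. The text names the 12 called genes that increased most and the 12 that decreased most with no overlap between arrays, up to 4 per list, and 10 genes always given. Further list members are named to account for the called ones and their nearest neighbours, and were chosen after their values were seen. The 34 lists (527 measured genes), the receptor probes for background and the comparison were chosen with earlier results of these data known. No list was tested. Same-numbered GFPoct4 and C57-mES arrays did not deviate together (correlations -0.061 to 0.048), and array numbers were not used to pair them. Alternatives were other backgrounds, scalings, probe rules, array weights, arrays left out and a replicate block. The number of arrays limits precision, and the code was tested on simulated data.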

Additional observations from a re-analysis of the deposited data

Results flagged for a closer look

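Among the genes named above, 230 groups of 4 arrays were examined for a single array far from the other 3, and 18 had one, where chance gives about 1 in 20. GFPoct4 array 1 was the far one in 4, other GFPoct4 arrays in 6 and C57-mES arrays in 8. On GFPoct4 array 1, Zscan4c read 11.00 (others 10.37 to 10.44), Slc52a3 11.12 (others 10.73 to 10.80), Hspe1 10.43 (others 11.55 to 11.75) and Dnajb1 13.18 (others 12.93 to 12.94). On GFPoct4 array 3, Timmdc1 read 10.71 (others at 10.46), Wnt7b 6.30 (others 6.72 to 6.78) and Slc3a2 9.32 (others 8.94 to 8.98). Mtf2 read 11.73 on GFPoct4 array 2 (others 12.04 to 12.08), and on GFPoct4 array 4 Fgfr2 read 6.88 (others 6.53 to 6.56) and Bmpr1a 10 (others 9.80 to 9.82). On C57-mES array 4, Tdgf1 read 7.75 (others 7.23 to 7.25), Timmdc1 7.32 (others 7.62 to 7.66), Gata3 8.15 (others 8.49 to 8.51), Peg3 8.15 (others 8.62 to 8.71), Cdt1 12.70 (others 12.41 to 12.45), Slc3a2 7.39 (others 7.12 to 7.16) and Glo1 12.16 (others 12.34 to 12.37). On C57-mES array 1, Ifitm1 read 7.78 (others 7.90 to 7.92). None of these arrays changed the direction of the gene's difference between the groups.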

How the results depend on the processing

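The number of called genes stayed within 1.5 times of 1314 under every alternative run except the one without a minimum fold change, which called 6716 genes, 3388 higher and 3328 lower. Leaving out 1 array of GFPoct4 or C57-mES at a time gave 1307 to 1346 called genes, 725 to 757 higher and 578 to 591 lower. The smallest count, 1039, came from averaging all probes of a gene, and the largest with the fold threshold, 1743, from an offset of 16. With the replicate number as a block 1314 genes were called (738 higher, 576 lower), and no named gene changed its call. Leaving out E14-mES array 4, whose raw median was 179, was added after the data were seen and gave 1279. The share of higher among called genes was 56.2% as reported, 61% with median centring, 55.4% without background correction and 53.6% in the unnormalized values.

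Of the 106 called genes among the 115 named, 92 kept their direction and call in all alternatives. Direction turned only at uncalled genes: Sox2 (0.61) and Xist (-0.02) with all probes averaged, Nnt with median centring (0.04), in the unnormalized values (0.12) and without C57-mES array 4 (0.03), and Col1a1 in the unnormalized values (0.00) and without C57-mES array 1 or 2 (0.03 each). Over single arrays left out, Nnt ranged over -0.12 to 0.03 and Col1a1 over -0.11 to 0.03. Averaging all probes ended the calls of Stat3 (0.74), Fgfr2 (-0.57), Bmpr1a (0.71), Insig1 (-0.88), Vegfa (0.69), Pfkp (0.41), Egln3 (0.55), Ifitm1 (0.37) and Dnajb9 (0.95). Stat3, Eed, Mtf2, Ccnd1, Cox7b and S100a4, each within 0.1 of the threshold, fell below it in the unnormalized values and, apart from Ccnd1, under others as well: Stat3 without GFPoct4 array 1 (0.94) or 2 (1.00), Eed without C57-mES array 3 (0.98), Mtf2 without C57-mES array 4 (0.91), Cox7b without GFPoct4 array 2, 3 or 4 or C57-mES array 2 (0.84 to 0.97), and S100a4 without GFPoct4 array 3 or 4 or C57-mES array 1 (0.88 to 0.98). Array weights also ended the calls of Stat3 (0.97) and Mtf2 (0.96). Those of Cox7b and S100a4 also ended without background correction (0.97 and 0.95), with only the 8 arrays compared (0.99 each) and without E14-mES array 4 (1.00 and 0.99). The causes were not tested. Chromosome 8 kept a median between 0.24 and 0.31 and chromosome 11 between -0.16 and -0.10 under the 4 scalings. Probes near background limit 235 of the 1314 folds to lower bounds.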
